A study of Mus musculus with 28 samples.

Results

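The Rab GTPases are small GTP-binding proteins that mark intracellular membranes, and their genes were followed here in XEN-eYFP cells, a mouse line of extraembryonic endoderm stem cells carrying a yellow fluorescent protein. The members were all genes whose symbol in the probe annotation is Rab followed by a number and at most a letter and a digit, which gave 59 of 19057 genes, read by 112 probes. Of these, 41 passed the detection filter and form the set tested, among 9951 genes tested in all. Expression was measured on Illumina MouseWG-6 v2 BeadChips after 96 h of culture without added protein (Media), or with recombinant Nodal protein at 50 ng/ml or recombinant Cripto protein at 100 ng/ml, and each of these conditions was repeated in the presence of SB431542. Nodal belongs to the TGF-beta ligands, Cripto, of the EGF-CFC family, serves as its co-receptor, and SB431542 blocks the kinase activity of the type I receptors for activin and Nodal. There were 3 arrays of Nodal with SB431542 and 5 of every other group, and the 28 arrays lay on 7 BeadChips numbered here 1 to 7. The concentration of SB431542 is not stated in the labels, all groups come from 1 cell line, and no label states that arrays came from independent cultures, so a p-value here covers the spread between these arrays, which may be technical. The study concerned how Nodal and EGF-CFC signalling act on the differentiation of these cells.

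A Rab protein cycles between an inactive GDP-bound form held in the cytosol by a GDP dissociation inhibitor and an active GTP-bound form on a membrane. Exchange factors load GTP, GTPase-activating proteins end the active state, and effectors bound by the active form tether, move and fuse vesicles. Each Rab is known for its own route, such as ER to Golgi, early endosome, recycling, lysosome or secretion. Visceral endoderm, a derivative of the primitive endoderm that these cells represent, is known as a strongly endocytic epithelium.

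Levels are log2 intensities after background correction and quantile normalisation, a probe counted as detected at a detection p-value below 0.01, and a change was called at an adjusted p below 0.05 in limma with the BeadChip as a term. The mean raw signal of an array ranged from 183.8 to 995, and each array detected between 13191 and 16183 probes. The mean raw signal of Nodal over that of Media on a shared chip was between 1.05 and 2.09, and that of Cripto over Media between 1.14 and 1.79. Of 11 markers of extraembryonic endoderm, 10 were detected on every array. Of 6 fibroblast markers 5 were detected on no array, and the other, Pdgfrb, on all 28. Of 5 trophoblast markers 4 were detected on no array, and the other, Cdx2, on 10 (4.51 to 7.41). Sums over the trophoblast list thus consist mostly of values not above background. Its summed log2 level was between 23.26 and 24.91 on Media arrays, 24.2 and 25.23 on Nodal arrays, and 24.86 and 25.85 on Cripto arrays. With SB431542 alone it was between 22.95 and 23.63, with Nodal and SB431542 between 23.6 and 24.09, and with Cripto and SB431542 between 25.74 and 27.13. Of 5 pluripotency markers, Nanog was detected on 0 arrays, Esrrb on 1, Zfp42 on 21, Klf2 on 25 and Pou5f1 on 26, and the summed log2 level of that list was between 28.72 and 30.53 on Media arrays, 27.51 and 29.67 on Nodal arrays, and 28.39 and 31.11 on Cripto arrays. The part of these marker levels in the Rab results was not tested.

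The promoter windows of 4 members are shown, chosen for the changes of these genes, and a link between window and change was not tested. Rab15 and Rab31 had the largest rises, and Rab5c and Rab5b are paralogs that moved in opposite directions. Each window runs from 250 bases before to 50 bases after the first annotated start in RefSeq (GRCm38.p6), 5′ to 3′ on the gene's strand. Rab15 lies at chr12:76822475-76822774 (minus strand, the first of 4 windows listed), Rab31 at chr17:65772703-65773002 (minus strand), Rab5c at chr11:100738166-100738465 (minus strand) and Rab5b at chr10:128696219-128696518 (minus strand). Capitals mark a match to any of 4 motifs searched on both strands: the E-box CACGTG, the AP-1 site TGANTCA, the GATA motif AGATAA and the Smad-binding motif CAGACA.
Rab15: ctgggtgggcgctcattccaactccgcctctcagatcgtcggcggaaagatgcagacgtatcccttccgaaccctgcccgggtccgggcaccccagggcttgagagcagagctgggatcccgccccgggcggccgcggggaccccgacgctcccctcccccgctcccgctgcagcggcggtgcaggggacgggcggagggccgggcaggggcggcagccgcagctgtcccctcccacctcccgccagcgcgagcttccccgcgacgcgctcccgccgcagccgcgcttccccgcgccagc
Rab31: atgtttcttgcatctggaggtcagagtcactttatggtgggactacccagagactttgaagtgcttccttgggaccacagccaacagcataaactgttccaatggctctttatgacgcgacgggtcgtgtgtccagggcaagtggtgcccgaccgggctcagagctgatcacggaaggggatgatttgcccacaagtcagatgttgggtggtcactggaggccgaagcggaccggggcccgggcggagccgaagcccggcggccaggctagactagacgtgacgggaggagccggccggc
Rab5c: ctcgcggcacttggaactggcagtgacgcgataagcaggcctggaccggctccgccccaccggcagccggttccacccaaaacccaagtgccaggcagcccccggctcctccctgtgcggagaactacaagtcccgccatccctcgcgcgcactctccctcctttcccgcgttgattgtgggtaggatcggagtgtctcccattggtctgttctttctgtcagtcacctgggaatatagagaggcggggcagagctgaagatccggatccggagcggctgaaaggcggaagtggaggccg
Rab5b: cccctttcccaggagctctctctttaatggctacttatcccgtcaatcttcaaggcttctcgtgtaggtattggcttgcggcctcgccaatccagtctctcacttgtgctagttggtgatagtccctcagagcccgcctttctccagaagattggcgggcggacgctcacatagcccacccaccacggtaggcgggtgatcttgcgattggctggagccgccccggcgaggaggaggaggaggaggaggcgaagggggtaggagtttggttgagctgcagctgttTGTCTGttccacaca
Only the Rab5b window of these 4 held a match, 1 copy of the Smad-binding motif on the reverse strand. Among 37 tested members with a window, 7 held this motif (18.9%), against 21% of 27025 genes with a window. The E-box was present in 5 of the 37 (13.5%; 7.24% of all genes), in the windows of Rab5a, Rab20, Rab21, Rab23 and Rab24. The AP-1 site was present in 1, that of Rab39b (2.7%; 7.93% of all genes), and the GATA motif in 0 (11.4% of all genes). A match describes these letters only, and the lack of one says only that they are not in this window.

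After 96 h in Nodal, 24 of the 41 Rab genes differed from Media, 16 higher and 8 lower, where 57.6% of all genes tested were called (28.7% higher and 28.9% lower). After Cripto, 26 of 41 differed, 14 higher and 12 lower, against 64.5% of all genes (32% higher and 32.5% lower). In RNA of whole cultures, a change in the make-up of the cells and a change in RNA per cell cannot be told apart. The share of Rab genes called was close to that of all genes in both comparisons. The median change of the 41 genes was 0.24 for Nodal and 0.13 for Cripto on the log2 scale, and 0.01 over all genes in each. A change of at least 2-fold was seen in 7 Rab genes with Nodal and in 7 with Cripto, against 17.5% and 24.6% of all genes. Between them the comparisons called 30 Rab genes, 13 higher in both, 7 lower in both and none in opposite directions. Because both use the Media arrays, this sharing is not independent, and the matching share of all genes is not given. With the mean raw signal of each array as a covariate (brightness), 16 genes were called with Nodal and 18 with Cripto. Calls over all genes fell too, from 5727 to 3849 with Nodal and from 6421 to 4576 with Cripto. The Nodal calls that brightness ended were Rab2a, Rab3a, Rab5c, Rab7, Rab9, Rab21, Rab25 and Rab35, and the Cripto calls Rab1a, Rab4b, Rab7, Rab8a, Rab8b, Rab9, Rab11b, Rab21 and Rab25. On chips 5 to 7 alone, 18 Rab genes were called in each comparison, against 4617 of all genes with Nodal and 5404 with Cripto. The arrays of both groups did not overlap for 10 Rab genes with Nodal (25.9% of all genes) and for 16 with Cripto (37.8% of all genes). On every chip that carried both arrays, 18 of the 24 Nodal calls and 23 of the 26 Cripto calls had the sign of the fit. Under every alternative setting and with every array left out in turn, 9 genes stayed called with Nodal and 9 with Cripto. For Nodal these were Rab1a, Rab4a, Rab6b, Rab15, Rab23, Rab27a and Rab31 as rises and Rab5b and Rab43 as falls, and for Cripto the same genes with Rab5c in place of Rab1a. The matching shares of all genes are not given for the signs within chips or for the calls that stayed, so these counts cannot be set against them.

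The split between rises and falls depends on the scaling. When arrays were centred on their medians instead of quantile normalised, all genes shifted up by 0.44 with Nodal and 0.43 with Cripto. The calls among Rab genes became 26 higher and 2 lower for Nodal and 23 higher and 3 lower for Cripto. Over all 9951 genes they became 5038 higher and 1160 lower for Nodal, and 4974 higher and 1540 lower for Cripto. Taken relative to that shift, all 24 Nodal calls and all 26 Cripto calls kept their direction. Subtracting the shift largely restores the quantile-normalised change, so this is not a separate test of direction. A fall named here is thus a fall relative to most genes on the arrays. Under median centring without that correction, the falls still called were Rab43 and Rab5b for Nodal, and Rab43, Rab5b and Rab25 for Cripto.

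**Figure D1:**
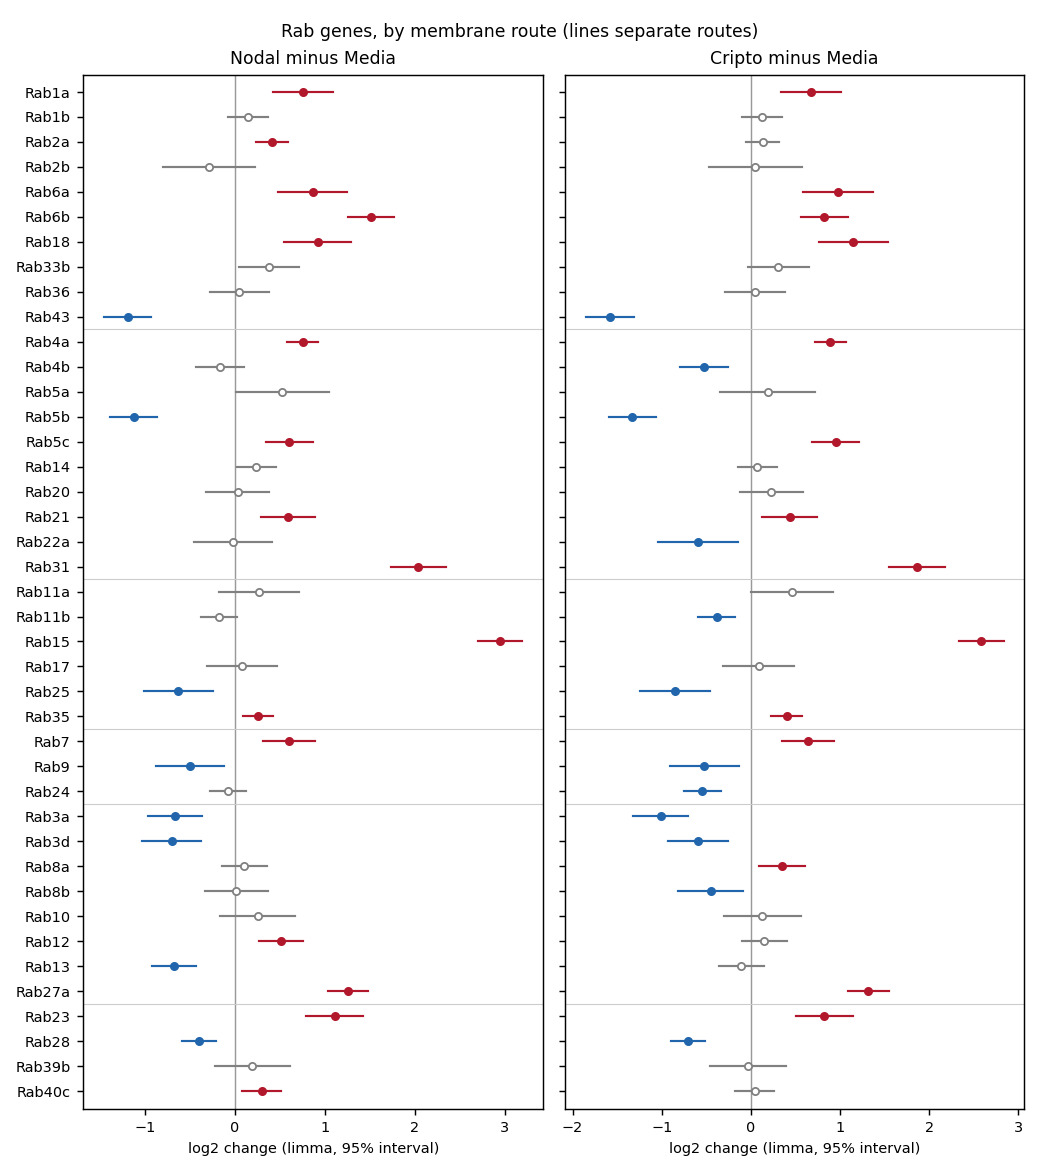
Log2 change of each tested Rab gene (y axis, ordered by membrane route) for Nodal minus Media (left) and Cripto minus Media (right), with 95% intervals from limma. Filled red points were called higher, filled blue points lower, and open grey points were not called, with Rab15 farthest to the right at 2.95 and 2.58.

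**Figure D2:**
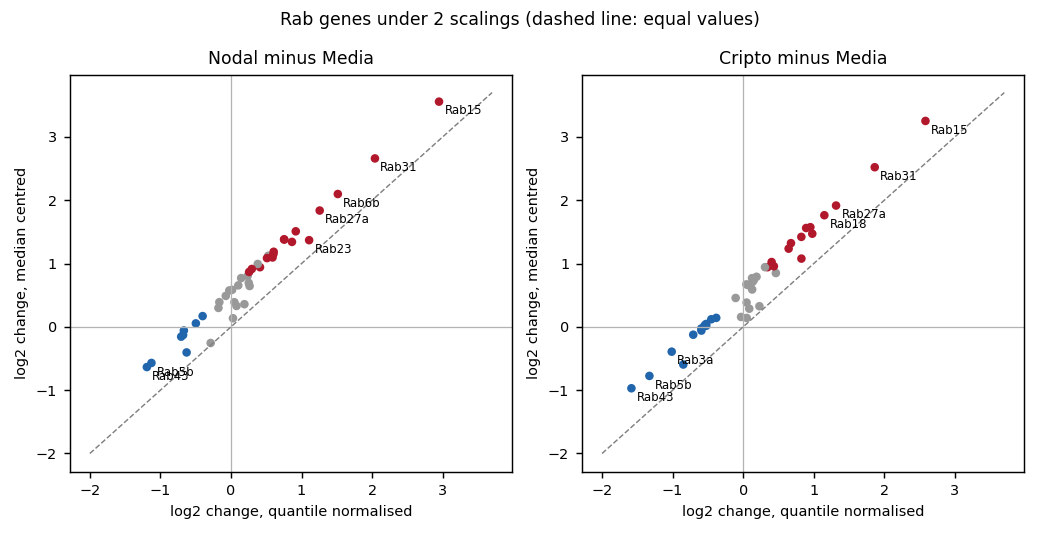
Log2 change of the 41 Rab genes under quantile normalisation (x axis) and under median centring (y axis), for Nodal and Cripto against Media, with red for genes called higher, blue for lower and grey for not called in the quantile-normalised fit. Every point lies above the dashed line of equal values, and Rab43 and Rab5b stay below 0 on both axes.

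Among the 10 tested genes of the ER and Golgi route, 5 rose and 1 fell with Nodal, and 4 rose and 1 fell with Cripto. Rab6b, a Rab6 isoform of Golgi transport best known from neurons, read 8.12, 8.20, 7.86, 8.50 and 8.14 on the Media arrays. Its Nodal arrays read 9.997, 9.44, 9.51, 9.63 and 9.82, and its Cripto arrays 9.27, 8.67, 8.71, 9.13 and 9.03. All Nodal and all Cripto arrays lay above all Media arrays, and all Nodal arrays lay above all Cripto arrays. The change was 1.51 ± 0.12 (SE) with Nodal, 2.86-fold (limma, adjusted p = 1.59e-09), and 0.82 ± 0.12 with Cripto (limma, adjusted p = 7.58e-06). Rab6a, the widespread isoform that serves Golgi exit and retrograde transport, rose by 0.86 with Nodal (limma, adjusted p = 0.000466) and by 0.98 with Cripto (limma, adjusted p = 0.000127). Its groups overlapped, because Media array 5 read 8.60 where the other 4 read 7.04 to 7.60, and on chips 5 to 7 alone neither change was called (0.42 and 0.59).

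Rab1a, which acts in transport from the ER to the Golgi, rose by 0.76 with Nodal and 0.68 with Cripto (limma, adjusted p = 0.00039 and 0.00106). Its first Nodal array, at 9.97, lay among the Media arrays (9.70 to 10.09), while the other Nodal arrays read 10.62 to 11.24. A second Rab1a probe, detected on 10 arrays, gave -0.17 and -0.32, and averaging the probes ended the Cripto call (0.18). Rab18, found on lipid droplets and the ER, rose by 0.92 ± 0.18 with Nodal and 1.15 ± 0.18 with Cripto (limma, adjusted p = 0.000206 and 1.58e-05). It read 7.94, 8.22, 8.81, 8.90 and 10.10 on Media, and Media array 5 lay within the Nodal range of 8.65 to 10.42. Without the BeadChip term the Nodal change of Rab18 was not called (adjusted p = 0.0555). Rab2a, which acts between the ER and the Golgi, rose by 0.41 with Nodal, a call lost with brightness as a covariate (adjusted p = 0.0966), and its Cripto difference of 0.13 was not called.

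Rab43, a Golgi Rab, had the largest fall of the family. Its Media arrays read 9.40, 9.54, 9.56, 8.06 and 8.02, the Nodal arrays 8.29, 8.20, 7.94, 7.43 and 6.75, and the Cripto arrays 7.92, 7.68, 7.88, 6.43 and 6.68. Arrays on chips 5 to 7 read lower than those on chips 1 to 4 in each of these groups, and the Nodal and Media ranges overlapped, while the Cripto and Media ranges did not. Within chips, Nodal lay below Media on all 5 shared chips (-1.62 to -0.63) and Cripto on all 4 (-1.86 to -1.34). The fitted change was -1.19 ± 0.12 with Nodal (limma, adjusted p = 8.42e-08) and -1.58 ± 0.13 with Cripto (limma, adjusted p = 1.24e-09). Under median centring these were -0.64 and -0.97. A second probe, detected on 20 arrays, also gave falls (-0.69 and -1.11). The other members of the route, Rab1b, Rab2b, Rab33b and Rab36, were not called in either comparison. A second Rab1b probe gave 0.36 with Nodal and 0.59 with Cripto (limma, adjusted p = 0.0425 and 0.00217 over all probes).

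In the early endosome group of 10, 4 rose and 1 fell with Nodal, and 4 rose and 3 fell with Cripto. Rab31, which moves cargo between the trans-Golgi network and endosomes, read 8.94, 8.95, 9.08, 9.33 and 9.49 on Media. It read 10.06, 11.26, 11.32, 11.65 and 11.70 with Nodal, and 10.82, 10.67, 11.02, 11.36 and 11.28 with Cripto. Every treated array lay above every Media array, with the first Nodal array well below the other Nodal arrays. The change was 2.04 ± 0.15 (4.11-fold) with Nodal and 1.86 ± 0.15 (3.64-fold) with Cripto (limma, adjusted p = 2.38e-10 and 1.03e-09).

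Of the 3 paralogs of Rab5, the regulator of early endosome fusion, Rab5b fell, Rab5c rose and Rab5a was not called. Rab5b read 8.35, 8.60, 8.43, 8.71 and 8.17 on Media, 7.66, 7.18, 6.96, 7.66 and 7.16 with Nodal, and 7.23, 6.75, 7.02, 7.51 and 7.25 with Cripto. No treated array reached the Media range, and the change was -1.13 ± 0.12 with Nodal and -1.33 ± 0.13 with Cripto (limma, adjusted p = 1.58e-07 and 1.36e-08; -0.57 and -0.78 under median centring). Rab5c read 11.52, 11.53, 11.60, 10.70 and 11.22 on Media, 11.50, 12.50, 12.20, 11.57 and 11.82 with Nodal, and 12.46, 12.51, 12.60, 11.74 and 11.99 with Cripto. Its Cripto arrays lay above all Media arrays, whereas the Nodal arrays overlapped them. The change of Rab5c was 0.60 ± 0.12 with Nodal and 0.95 ± 0.13 with Cripto (limma, adjusted p = 0.000319 and 1.52e-06), and with array brightness as a covariate the Nodal change was not called (0.37, adjusted p = 0.0937). The differences of Rab5a were 0.53 and 0.19. Each of Rab5b and Rab5c was read by 1 probe.

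Rab4a, which returns cargo from early endosomes to the surface, read between 9.23 and 9.57 on Media, between 9.89 and 10.45 with Nodal, and between 10.01 and 10.62 with Cripto. The ranges did not overlap, and the change was 0.75 ± 0.08 with Nodal and 0.89 ± 0.09 with Cripto (limma, adjusted p = 1.74e-07 and 1.38e-08). Its paralog Rab4b went the other way with Cripto, by -0.53 (limma, adjusted p = 0.00138; 0.05 under median centring), and was not called with Nodal (-0.17). Rab21, known for the endocytosis of integrins, rose by 0.59 with Nodal and 0.43 with Cripto (limma, adjusted p = 0.00157 and 0.0141). With brightness as a covariate these became 0.41 and 0.23 and were not called, and without the first or the second Media array the Cripto call was lost (adjusted p = 0.0544 and 0.0504). Rab22a, of early endosome sorting, fell by 0.59 with Cripto (limma, adjusted p = 0.0204; -0.03 under median centring), a call lost without the first or second Media array or the second Cripto array, and with the mean of the detected probes (-0.30, adjusted p = 0.132). Rab14 and Rab20 were not called in either comparison.

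Rab15 was the member with the largest rise. It is a Rab of early and recycling endosomes studied mostly in neuronal cells. It read 9.49, 9.73, 9.68, 10.08 and 9.69 on Media, 12.24, 12.61, 12.72, 12.87 and 12.96 with Nodal, and 12.23, 11.91, 12.31, 12.57 and 12.50 with Cripto. The gap between the Media arrays and the lowest treated array exceeded the spread within any of these groups. The change was 2.95 ± 0.12 (7.72-fold) with Nodal and 2.58 ± 0.12 (5.99-fold) with Cripto (limma, adjusted p = 1.98e-14 and 2.03e-13). Over every alternative setting and every array left out, the change ranged from 2.80 to 3.56 with Nodal and from 2.44 to 3.25 with Cripto.

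With Rab15, the recycling and apical group held 6 tested genes, of which 2 rose and 1 fell with Nodal, and 2 rose and 2 fell with Cripto. Rab35, which recycles cargo to the plasma membrane, rose by 0.26 with Nodal and 0.40 with Cripto (limma, adjusted p = 0.0101 and 0.000257), with no overlap between treated and Media arrays. The Nodal call was lost with brightness as a covariate (adjusted p = 0.0504), on chips 1 to 4 (adjusted p = 0.106) and on chips 5 to 7 (adjusted p = 0.191), where the change was 0.30, 0.25 and 0.27. Rab25, an epithelial relative of Rab11 in apical recycling, was detected on 8 of 28 arrays, 2 of them Media, 1 Nodal and 1 Cripto. It read 6.19, 5.46, 6.41, 6.17 and 5.62 on Media, 6.53, 5.24, 5.06, 5.13 and 4.74 with Nodal, and 5.86, 4.88, 4.92, 4.94 and 4.83 with Cripto. Most of these values were not above background, so the sizes are uncertain. The fitted changes were -0.63 and -0.85 (limma, adjusted p = 0.00612 and 0.000515), with the first Nodal array above all Media arrays and the first Cripto array inside their range, and neither was called with brightness as a covariate (-0.20 and -0.37). Rab11b, of the recycling endosome, fell by 0.38 with Cripto (limma, adjusted p = 0.00212; 0.14 under median centring). Rab11a and Rab17, an epithelial Rab of apical transcytosis, were not called against Media. A second Rab17 probe gave 0.22, not called, with Nodal and 0.55 with Cripto (limma, adjusted p = 0.0194 over all probes).

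Of the 3 tested genes of the late endosome and autophagy group, 1 rose and 1 fell with Nodal, and 1 rose and 2 fell with Cripto. Rab7, which drives late endosomes to lysosomes, was the one that rose. It read 11.99, 11.86, 11.80, 11.78 and 11.70 on Media, 11.85, 12.88, 12.59, 12.25 and 12.57 with Nodal, and 12.49, 12.68, 12.52, 12.16 and 12.42 with Cripto. The first Nodal array alone fell inside the Media range. The change was 0.60 with Nodal and 0.64 with Cripto (limma, adjusted p = 0.000885 and 0.000462), and with brightness as a covariate neither was called (0.40 and 0.42). Averaging the 3 probes of Rab7 gave 0.31 with Cripto, since the other probes gave 0.16 and 0.14. Rab24, linked to autophagy, fell by 0.55 with Cripto (limma, adjusted p = 6.14e-05; 0.03 under median centring), where its other probes gave -0.57 and -1.01, and it was not called with Nodal (-0.07).

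Rab9, which returns mannose 6-phosphate receptors from late endosomes to the Golgi, had the largest difference between chips. Media arrays read 10.30, 10.11 and 10.29 on chips 1 to 3, and 7.63 and 8.19 on chips 5 and 6. Its changes of -0.50 with Nodal and -0.52 with Cripto (limma, adjusted p = 0.0237 and 0.0183) were small beside that gap and became 0.06 and 0.02 under median centring. Both calls were lost with the chip as a random block (adjusted p = 0.291 and 0.264) and with brightness as a covariate (adjusted p = 0.285 and 0.283). The Nodal call was also lost without Media array 3 or 5 or Nodal array 2 or 4, and the Cripto call without Media array 3 or 5 or Cripto array 1 or 5.

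The group of exocytosis and secretory granules held 8 tested genes, with 2 rises and 3 falls in each comparison. Rab27a, which docks secretory vesicles and lysosome-related organelles at the plasma membrane, read 7.74, 7.84, 7.84, 8.64 and 8.46 on Media. It read 8.72, 9.30, 9.23, 9.87 and 9.68 with Nodal, and 9.09, 9.10, 9.31, 9.84 and 9.74 with Cripto. The groups did not overlap, and within chips the difference was between 0.99 and 1.47 for Nodal and between 1.21 and 1.36 for Cripto. The change was 1.26 ± 0.11 and 1.32 ± 0.11 (limma, adjusted p = 4.74e-09 and 2.29e-09). Rab3a, of regulated secretion, went the other way, reading 9.21, 9.39, 9.31, 9.18 and 9.02 on Media, 8.81, 8.36, 8.26, 8.78 and 8.56 with Nodal, and 8.28, 7.71, 7.95, 8.51 and 8.54 with Cripto.

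The ranges of Rab3a did not overlap, and its change was -0.67 ± 0.14 with Nodal and -1.01 ± 0.15 with Cripto (limma, adjusted p = 0.000518 and 4.72e-06), neither called under median centring (-0.06 and -0.39) and the Nodal one not called with brightness as a covariate (-0.46, adjusted p = 0.0874). A second Rab3a probe gave -0.65 and -1.16. Rab3d, a granule Rab of exocrine cells, had a change of -0.71 with Nodal and -0.59 with Cripto (limma, adjusted p = 0.00065 and 0.00294; -0.16 and -0.06 under median centring). Rab12, which directs the transferrin receptor towards degradation, rose by 0.51 with Nodal (limma, adjusted p = 0.00106; 0.111 without the BeadChip term) and was not called with Cripto (0.15). Rab8a, of polarised exocytosis, rose by 0.34 with Cripto, and Rab8b fell by 0.45 (0.12 under median centring). The Rab8a call was lost without Cripto array 1 or 5 or Media array 5, and the Rab8b call without Media array 4 or 5 or Cripto array 2, 4 or 5. With Cripto, a second probe gave 0.81 for Rab8a and -0.50 for Rab8b (limma, adjusted p = 0.000102 and 0.0185 over all probes). With Nodal these probes were not called (0.28 and -0.08). Rab10, which serves the transport of the glucose transporter Glut4, was not called by its brighter probe (0.25 and 0.13), while its other probe gave 0.50 and 0.98 (limma, adjusted p = 0.0173 and 5.52e-05 over all probes).

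In the remaining group of 4, 2 rose and 1 fell with Nodal, and 1 rose and 1 fell with Cripto. Rab23, an inhibitor of Hedgehog signalling, read 5.66, 5.90, 6.25, 6.35 and 6.25 on Media, where the first array did not detect it. It read 7.19, 6.98, 6.90, 7.50 and 7.39 with Nodal, and 6.84, 6.57, 6.87, 7.10 and 7.02 with Cripto, detected on every array. The groups did not overlap, and the change was 1.11 ± 0.15 and 0.82 ± 0.15 (limma, adjusted p = 2.71e-06 and 8.61e-05). Its size depended on the processing, since Rab23 lay near background on Media. The Nodal change was 0.53 without background correction and 0.33 with the authors' values, and was called in both. Over the alternative settings and arrays left out it ranged from 0.33 to 1.37 with Nodal and from 0.215 to 1.08 with Cripto. Rab28, linked to photoreceptor cilia, read 11.29 to 11.51 on Media, 10.54 to 11.27 with Nodal and 10.51 to 10.81 with Cripto, without overlap. Its change was -0.40 with Nodal and -0.71 with Cripto (limma, adjusted p = 0.000635 and 9.04e-07; 0.17 and -0.12 under median centring), another probe on all arrays gave -0.11 and -0.28, and a probe detected on 12 arrays gave 0.20 and -0.29. The mean of the detected probes was -0.11 with Nodal and was not called (adjusted p = 0.369), and neither was the Nodal change on chips 5 to 7 (adjusted p = 0.0952). Rab40c, part of a ubiquitin ligase, rose by 0.29 with Nodal (limma, adjusted p = 0.0184) but not on chips 1 to 4 or 5 to 7 alone (adjusted p = 0.122 and 0.152), and was not called with Cripto (0.04). Rab39b was called in neither.

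**Figure D3:**
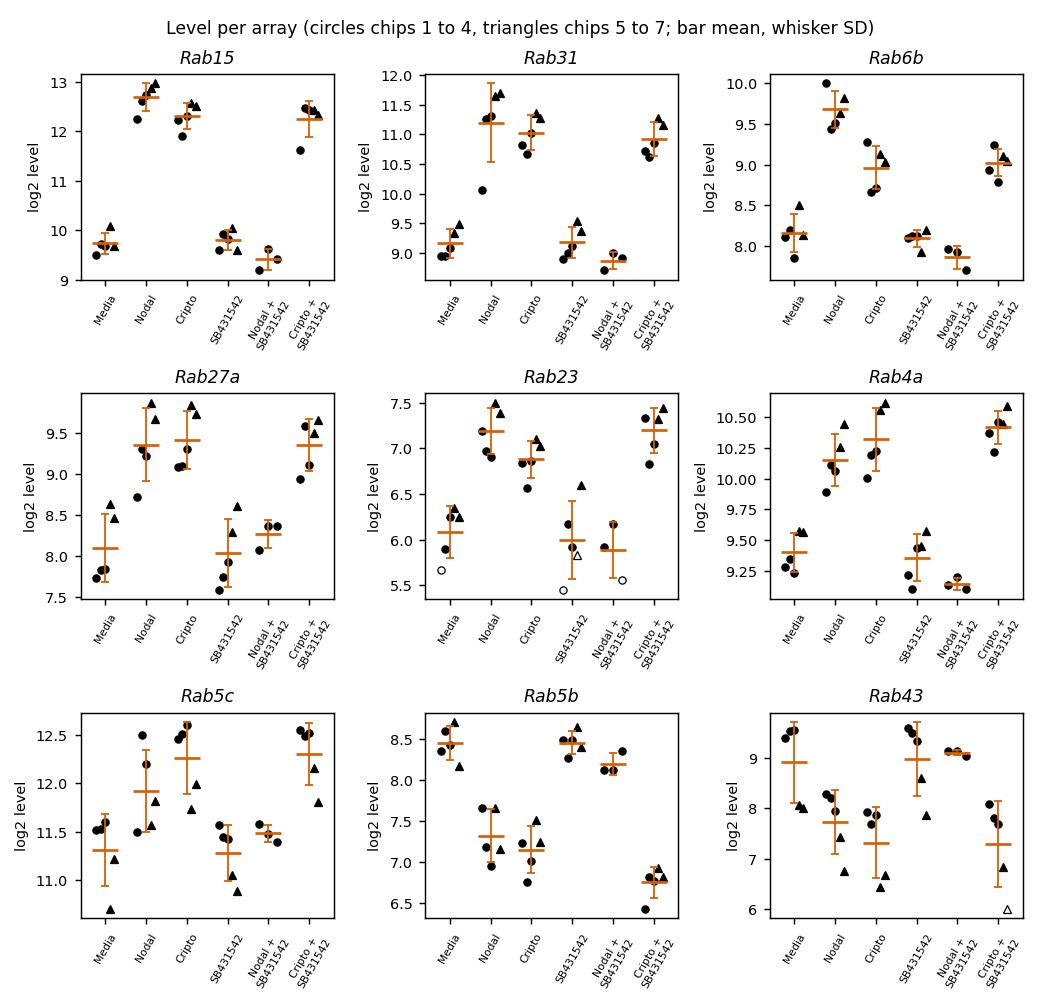
Log2 level (y axis) of 9 Rab genes on every array, by group (x axis), with circles for chips 1 to 4, triangles for chips 5 to 7, open symbols where the probe was not detected, and orange bars and whiskers for the mean and SD. Rab15 lies between 9.19 and 10.08 on Media, SB431542 and Nodal with SB431542 arrays and between 11.61 and 12.96 on the others, and Rab5b shows the reverse order, from 8.12 to 8.71 on the former and from 6.43 to 7.66 on the latter.

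Nodal and Cripto were then compared with each other, which 9 of the 41 genes distinguished, 8 higher with Nodal and 1 lower, against 25.1% of all genes called. Rab6b was 0.69 ± 0.12 higher with Nodal (limma, adjusted p = 0.000437). Rab13, which acts at tight junctions, differed by -0.57 ± 0.12, lower with Nodal (limma, adjusted p = 0.00182). It read 6.93, 7.26, 7.23, 7.55 and 7.90 with Nodal, 7.74, 7.64, 7.66, 8.31 and 8.37 with Cripto, and 7.83, 7.90, 7.77, 8.26 and 8.51 on Media. Rab13 lay lower with Nodal than with Cripto on all 4 shared chips, and against Media it fell with Nodal (-0.68, limma, adjusted p = 6.32e-05; -0.13 under median centring) but was not called with Cripto (-0.11). Its other probe gave a Nodal change of -0.25 that was not called.

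Rab24 was 0.47 higher with Nodal than with Cripto (limma, adjusted p = 0.0015), without overlap. The 6 others were Rab2a, Rab4b, Rab12, Rab15, Rab28 and Rab43, with differences of 0.28 to 0.39. The count of 9 fell to 4 without Cripto array 2 and to 5 without Cripto array 3, 4 or 5 or Nodal array 5. Rab2a, Rab12 and Rab13 were called against Media with Nodal and not Cripto, and Rab4b and Rab24 with Cripto and not Nodal. For the other genes called with 1 protein only (Rab40c with Nodal, and Rab8a, Rab8b, Rab11b and Rab22a with Cripto), the difference between the proteins was not called.

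For SB431542 alone against Media, limma called 0 of 41 members and 0% of all genes, and at an unadjusted p below 0.05 it gave 0 members and 270 genes in all. The differences ranged from -0.17 to 0.29, and the 95% intervals of all 41 lay within a 2-fold change.

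The effect of Cripto was also measured with SB431542 present. Against SB431542 alone, Cripto with SB431542 called 26 of 41 genes, 18 higher and 8 lower, where 65.5% of all genes were called (31.8% higher and 33.7% lower). Under median centring the split was 25 higher and 3 lower, against 4295 higher and 1911 lower over all genes. The arrays did not overlap for 21 members, against 42.3% of all genes. Of the 26 genes called for Cripto against Media, 21 were called again in the same direction. The matching share of all genes is not given, so this count cannot be set against it. Rab15 read 9.60, 9.91, 9.81, 10.05 and 9.60 on SB431542 alone and 11.61, 12.47, 12.42, 12.43 and 12.32 with Cripto and SB431542, a change of 2.49 ± 0.12 (limma, adjusted p = 6.02e-13). Rab31 rose by 1.68, Rab27a by 1.32, Rab23 by 1.18 and Rab4a by 1.02, each without overlap between the groups. Rab23 was detected on 3 of the 5 SB431542 arrays, and its change ranged from 0.35 to 1.31 over the alternative settings and arrays left out. Rab43 changed by -1.67 and Rab5b by -1.58 (limma, adjusted p = 9.16e-10 and 1.63e-09; -1.25 and -1.22 under median centring). Rab25 was not above background on any of the 5 arrays of Cripto with SB431542, so no fold is given for it there.

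The interaction in limma, which tests whether the Cripto effect differed with and without SB431542, was called for 0 of the 41 genes, against 0.653% of all genes. At an unadjusted p below 0.05 it gave 5 members, and 1484 of all 9951 genes. Its 95% interval lay within a 2-fold difference for 35 of the 41. Between Cripto with and without the inhibitor, 3 genes were called, all higher with SB431542, against 8.6% of all genes (4.22% higher and 4.38% lower). These were Rab1b (0.45), Rab3a (0.60) and Rab4b (0.45), and for 0 members were the arrays free of overlap, against 3.53% of all genes. This count fell to 0 without Cripto array 2 or 3 or array 1 of Cripto with SB431542, and to 1 without array 4 of that group. Rab1b and Rab17 were called in Cripto with SB431542 against SB431542 (0.49 and 0.78) though not in Cripto against Media (0.12 and 0.09). Their interactions were not called, and their second probes did not share this pattern. The second Rab1b probe gave 0.59 in each comparison (limma, adjusted p = 0.00257 and 0.00217 over all probes). The second Rab17 probe, detected on 20 arrays, gave 0.40, not called, with SB431542. Against Media it gave 0.55 (limma, adjusted p = 0.0194 over all probes). Rab17 read 5.74 to 6.22 on SB431542 and 6.38 to 7.01 with Cripto and SB431542.

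The same was done for Nodal. Nodal with SB431542 differed from Nodal alone in 19 of 41 genes, 5 higher and 14 lower, against 53.6% of all genes (26% higher and 27.6% lower). Under median centring the split was 2 and 19, against 1421 and 3754 over all genes. The arrays did not overlap for 16 members, against 41.6% of all genes. Only 2 chips carried both groups, and 16 of the 19 calls had the sign of the fit on both. On chip 1 the difference was 0.03 for Rab1a, 0.08 for Rab5c and 0.11 for Rab7, against negative fits. With brightness as a covariate the count stayed at 19, but Rab1b, Rab5c and Rab7 were not called (limma, adjusted p = 0.177, 0.0568 and 0.0691). Of the 24 genes called for Nodal against Media, 15 moved in the opposite direction here. Both comparisons use the Nodal arrays, with opposite sign, so this reversal is not independent, and the matching share of all genes is not given. Rab15 read 9.19, 9.62 and 9.41 on the 3 arrays of Nodal with SB431542, inside or below the Media range, and differed from Nodal alone by -3.24 ± 0.15 (limma, adjusted p = 2.63e-13). Rab31 read 8.70, 8.99 and 8.90, a difference of -2.13 ± 0.18 from Nodal alone, and Rab6b read 7.96, 7.93 and 7.71, a difference of -1.77 ± 0.15. Rab5b read 8.13, 8.12 and 8.35 and Rab43 9.15, 9.14 and 9.05, which were 0.89 and 0.97 above Nodal alone (limma, adjusted p = 6.17e-05 and 2.64e-05; 0.55 and 0.59 under median centring).

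The interaction of Nodal and SB431542 was called for 18 of 41 genes, 5 positive and 13 negative, against 43.9% of all genes (21.5% positive and 22.4% negative). Under median centring the split was 0 and 15, against 1051 and 2944 over all genes. In the quantile-normalised fit 4 of the interactions were as follows. The interaction was -3.28 ± 0.18 for Rab15, -2.16 ± 0.23 for Rab31, -1.71 ± 0.19 for Rab6b and -1.04 ± 0.23 for Rab23 (limma, adjusted p = 1.97e-11, 2.35e-07, 4.72e-07 and 0.00128). It was positive for Rab8b, Rab5b, Rab43, Rab13 and Rab28, and the count of 18 was 11 without the BeadChip term and 11 on chips 1 to 4 alone. Over all genes, 4365 interactions became 3175 and 3076. The Rab23 interaction ranged from -1.27 to -0.31 over the alternative settings and arrays left out. Under SB431542, Nodal and Cripto differed in 26 of 41 genes, 9 higher and 17 lower with Nodal, against 64.3% of all genes. Under median centring the split was 4 and 19, against 2275 and 3638 over all genes. The arrays did not overlap for 25 members, against 60.6% of all genes. The difference was -2.82 ± 0.15 for Rab15 and -1.80 ± 0.18 for Rab31 (limma, adjusted p = 1.67e-12 and 3.58e-08).

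**Figure D4:**
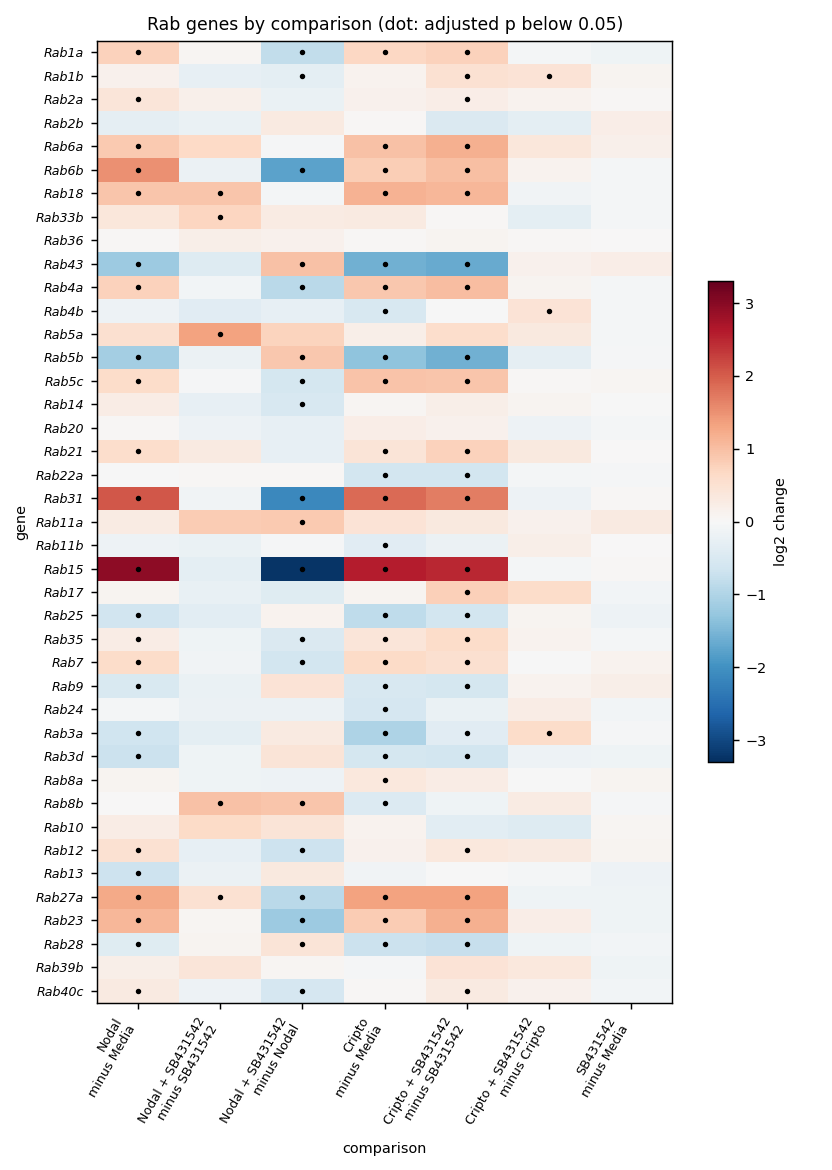
Log2 change of each tested Rab gene (rows, by route) in 7 comparisons (columns), red for higher and blue for lower, with a dot where the adjusted p was below 0.05. The columns for Cripto against Media and Cripto with SB431542 against SB431542 share most of their dots, and the column for Nodal with SB431542 against SB431542 has 5 dots, with none for SB431542 alone.

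Against SB431542 alone, Nodal with SB431542 called 5 Rab genes, all higher, where 3.68% of all genes were called (3.2% higher and 0.482% lower). These were Rab5a (1.32 ± 0.30), Rab8b (0.96 ± 0.20), Rab18 (0.91 ± 0.22), Rab33b of Golgi and autophagosome membranes (0.70 ± 0.19) and Rab27a (0.51 ± 0.13), with limma adjusted p of 0.024, 0.0174, 0.0287, 0.0481 and 0.037. Rab5a read 8.52, 8.43, 8.50, 8.97 and 10.32 on SB431542 and 9.94, 9.86 and 9.98 with Nodal and SB431542. SB431542 array 5 lay above all 3, so the groups overlapped, as they did for the other 4 genes. On the 3 shared chips the Rab5a difference was between 1.42 and 1.49, and that of Rab8b between 1.07 and 1.10.

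Rab8b read 7.95, 8.25, 8.07, 8.57 and 9.16 on SB431542, and 9.02, 9.33 and 9.17 with Nodal and SB431542. It was called neither for Nodal against Media (0.02) nor for SB431542 against Media, and lay 0.91 ± 0.21 above Nodal alone (limma, adjusted p = 0.00104; 0.50, not called, under median centring). Rab11a lay 0.86 above Nodal alone (limma, adjusted p = 0.00937), and its difference of 0.84 from SB431542 was not called (adjusted p = 0.0724). None of the 5 was called without SB431542 array 1, 2 or 3, or without any 1 of the 3 arrays of Nodal with SB431542, and the count was 1 without SB431542 array 4 and 3 without Nodal array 4 or Cripto array 4. Without the BeadChip term the count was 0, and the 366 calls over all genes became 3. Other probes differed: of the 3 Rab5a probes another gave 1.13 (adjusted p = 0.0219 over all probes) and the last 0.00, the second Rab8b probe gave 0.40 and was not called, and the 2 other Rab7 probes gave -0.97 and -0.71 (adjusted p = 0.0182 and 0.0453) where the probe used gave -0.11.

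Several of these genes read high on 1 Media and 1 SB431542 array. Media array 5 (chip 6) lay above the mean of the first 3 Media arrays by 1.78 for Rab18, 1.70 for Rab5a, 1.41 for Rab6a, 1.10 for Rab8b, 1.05 for Rab11a and 0.87 for Rab33b. SB431542 array 5 (chip 7) was the highest of its group for each of these 6 genes. No Nodal with SB431542 array lies on chips 5 to 7, so this comparison cannot be repeated there.

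**Figure D5:**
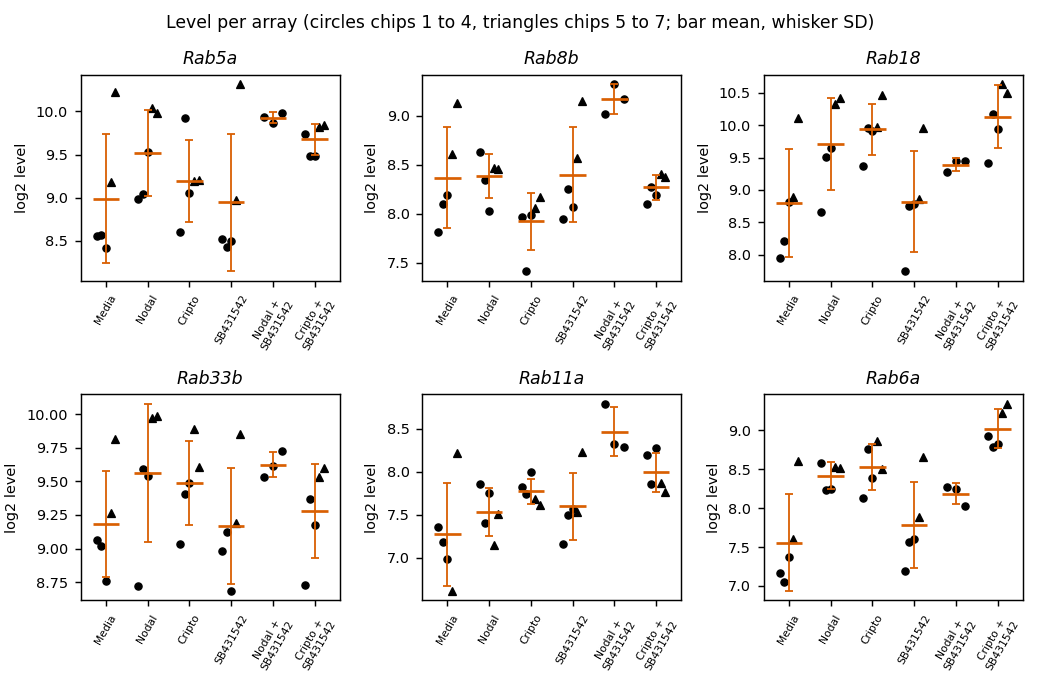
Log2 level (y axis) of 6 Rab genes on every array, by group (x axis), with circles for chips 1 to 4, triangles for chips 5 to 7, and orange bars and whiskers for the mean and SD. For Rab5a the 3 arrays of Nodal with SB431542 read 9.86 to 9.98, above 4 of the 5 SB431542 arrays and below array 5 at 10.32.

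Not all of the family was measurable. The 18 members that did not pass the filter were Rab3b, Rab3c, Rab7b, Rab9b, Rab19, Rab26, Rab27b, Rab29, Rab30, Rab32, Rab33a, Rab34, Rab37, Rab38, Rab39, Rab40b, Rab42 and Rab44. No probe of 16 of them was detected on any array, while Rab3b was detected on 1 array and the best Rab7b probe on 2. They include the paralogs Rab3b and Rab3c of Rab3a, and Rab27b of Rab27a, and Rab32 and Rab38 of melanosome formation. Of the 41 that passed, 34 were detected on every array. The exceptions were Rab43 (27 arrays), Rab23 (24), Rab17 (23), Rab2b (10), Rab39b (10), Rab25 (8) and Rab20 (5). By the probe used, Rab10, Rab14, Rab20, Rab36, Rab39b, Rab11a, Rab1b, Rab2b, Rab5a, Rab17 and Rab33b were called in neither Nodal nor Cripto against Media.

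The genes that run the Rab cycle were read from 4 lists, to be set against 57.6% of all genes called with Nodal (28.7% higher and 28.9% lower) and 64.5% with Cripto (32% higher and 32.5% lower). Of 7 tested genes of the membrane cycle and prenylation, 4 rose and 0 fell with Nodal, and 4 rose and 0 fell with Cripto. Gdi2, a GDP dissociation inhibitor that keeps Rabs soluble, rose by 0.71 ± 0.12 with Nodal (limma, adjusted p = 4.5e-05), and Rabif, a chaperone of nucleotide-free Rabs, by 0.70 and 1.10 with Nodal and Cripto. Of 38 exchange factors, 12 rose and 12 fell with Nodal, and 11 rose and 16 fell with Cripto.

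Rab3ip, which encodes Rabin8, the exchange factor of Rab8, was detected on 2 of 5 Media arrays and on all Nodal and Cripto arrays. The fitted change was 3.03 ± 0.16 with Nodal and 3.13 ± 0.16 with Cripto (limma, adjusted p = 1.2e-12 and 8.18e-13), sizes that rest on a Media level mostly not above background. It differed by -0.06 with Nodal and SB431542 and by 3.44 with Cripto and SB431542, each against SB431542. With Cripto, Rab8a differed from Media by 0.34 (0.81 by its second probe) and Rab8b by -0.45 (-0.50 by its second probe). Rin2, an exchange factor of Rab5, was detected on 1 of 5 Media arrays and on all Nodal and Cripto arrays, and its fitted changes of 2.23 and 1.47 are likewise uncertain in size. Trappc3, a TRAPP subunit acting on Rab1, rose by 1.38 and 1.56. Dennd6b changed by -2.46 and -2.09 (-1.92 and -1.50 under median centring), and Trappc9, another TRAPP subunit, by -1.32 and -1.57 (-0.76 and -1.01 under median centring).

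Of 33 GTPase-activating proteins, 12 rose and 7 fell with Nodal, and 9 rose and 8 fell with Cripto. Tbc1d1 rose by 1.25 and 1.14, whereas Evi5l changed by -1.15 and -1.46 (-0.60 and -0.94 under median centring) and Tbc1d5, which acts on Rab7, by -0.87 and -1.70 (-0.26, not called, and -1.09 under median centring). Of 37 effectors, 11 rose and 7 fell with Nodal, and 13 rose and 11 fell with Cripto. Rab11fip4, an effector of Rab11, rose by 1.36 and 1.24, Exoc6, an exocyst subunit, by 1.41 with Nodal, and Appl1, an effector of Rab5, by 1.04 with Nodal. Rufy1, an effector of Rab4 and Rab14, rose by 1.61 with Cripto. Ehbp1 changed by -1.32 and -2.11 (-0.73 and -1.51 under median centring), and Rilp, the effector that couples Rab7 to dynein, by -1.05 with Nodal (-0.61 under median centring). Under median centring the rises and falls were 6 and 0 with Nodal and 7 and 0 with Cripto for the membrane cycle, 22 and 6 with Nodal and 18 and 8 with Cripto for the exchange factors, 22 and 1, and 18 and 3, for the GTPase-activating proteins, and 22 and 2, and 19 and 6, for the effectors. Over all genes they were 5038 and 1160 with Nodal and 4974 and 1540 with Cripto.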

How the data were processed

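Total RNA (200 ng, biotin-labelled) from XEN-eYFP cells was hybridised to Illumina MouseWG-6 v2 BeadChips. Per the file headers, the deposited array files give each of 45281 probes an average intensity and a detection p-value. The authors' processed values of the same arrays are on a log2-like scale with medians from 7.85 to 7.88 and served as an alternative, with their exact transformation not given in the sources used here. BeadStudio and lumi are named in the submitters' processing notes without versions. Intensities were corrected with neqc in limma 3.58.1 under R 4.3.3 (offset 16, quantile normalisation, log2). Probes with a detection p-value below 0.01 on at least 3 arrays were kept (18471), and the brightest probe of each gene was used (9951 genes). Of all probes, 34885 had 1 symbol, 18 several and 10378 none, and those with several or none were left out.

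A linear model with group and BeadChip was fitted with limma to all 28 arrays and all genes, with Benjamini-Hochberg adjustment over all genes and 16 residual degrees of freedom. The code was tested on simulated data for Nodal against Media, with log2 changes put into 50 genes at each size among 9951. It recovered 14% of the changes of 0.5, 78% of those of 1, 70% of those of -1 and 94% of those of 2, with 12 false calls. Most changes of 0.5 were thus not called in the simulation. Labels assigned the groups and gave no replicate numbers, so arrays are numbered in order of deposition, and array precision is limited by their number. All tested members were eligible to be named, and for partner lists the 3 largest called changes each way. The members and lists were chosen with earlier results of these data known. Alternatives covered background correction, offset, scaling, filter, probe choice, BeadChip handling, brightness, chip subsets, the eBayes options, the authors' values and each array left out.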

Additional observations from a re-analysis of the deposited data

Results flagged for a closer look

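In the 5 groups of 5 arrays, each of the 41 genes was tested for a highest or lowest value standing apart from the others. The 205 tests found 12 such values, some of them on the same array, where chance gives about 5 percent. The 3 arrays of Nodal with SB431542 were not tested. Of the 12 values, 6 lay on the first array of a group. Rab31 read 10.06 on Nodal array 1 against 11.26 to 11.70 on the others, and Rab15 read 11.61 on array 1 of Cripto with SB431542 against 12.32 to 12.47. Rab25 read 6.53 on Nodal array 1 against 4.74 to 5.24, and 5.86 on Cripto array 1 against 4.83 to 4.94. Rab14 read 11.42 on array 1 of Cripto with SB431542 against 11.62 to 11.67, and 11.03 on Media array 5 against 11.47 to 11.60. Rab3a read 9.37 on SB431542 array 1 against 9.03 to 9.12. Rab5a read 10.32 on SB431542 array 5 against 8.43 to 8.97, and Rab10 read 7.26 on SB431542 array 4 against 8.17 to 8.35. Rab8b read 7.42 on Cripto array 2 against 7.97 to 8.17, Rab39b read 7.22 on Nodal array 4 against 5.42 to 5.72, and Rab40c read 10.92 on Media array 4 against 10.73 to 10.77.

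The log2 effect of Nodal differed with and without SB431542, by limma's interaction term, for 18 genes. It was lower with the inhibitor for Rab15 (-3.28), Rab31 (-2.16), Rab6b (-1.71), Rab23 (-1.04), Rab4a (-0.84), Rab12 (-0.78), Rab27a (-0.75), Rab7 (-0.71), Rab1a (-0.69), Rab5c (-0.64), Rab14 (-0.50), Rab40c (-0.46) and Rab35 (-0.41). It was higher for Rab8b (0.94), Rab5b (0.93), Rab43 (0.76), Rab13 (0.49) and Rab28 (0.49). Only 3 arrays held Nodal with SB431542, and the dose of the inhibitor is not given. Nodal and Nodal with SB431542 shared 2 chips. On chip 1 the latter lay 0.03 above Nodal alone for Rab1a, 0.08 for Rab5c and 0.11 for Rab7. The Rab23 interaction ranged from -1.27 to -0.31 over the alternative settings and arrays left out.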

How the results depend on the processing

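Of 156 gene results, 65 kept direction and call in every alternative tried and 12 reversed in at least one. The matching shares over all genes are not given. Under median centring the falls against Media became differences of the opposite sign, none of them called, for Rab9 (0.055) and Rab28 (0.17) with Nodal, and for Rab4b (0.046), Rab8b (0.12), Rab9 (0.017), Rab11b (0.142) and Rab24 (0.025) with Cripto. It also gave Rab3a 0.077 in Cripto with SB431542 against SB431542 and Rab28 -0.009 in Nodal with SB431542 against Nodal. The mean of the detected probes turned the sign of Rab14, without a call, to 0.096 in Nodal with SB431542 against Nodal, 0.137 against Cripto with SB431542 and 0.158 in the Nodal interaction. The cause was not tested, beyond the shift of all genes that median centring brings.

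The 5 genes called in Nodal with SB431542 against SB431542 became 1 under median centring, 3 with no detection filter, 0 without the BeadChip term, 2 with it as a random block and 3 with brightness as a covariate. Over all genes, 366 calls became 85, 227, 3, 257 and 250 in the same order. The 3 genes between Cripto with and without SB431542 became 0 under median centring, without the BeadChip term, on chips 1 to 4 and on chips 5 to 7. Calls over all genes went from 856 to 305, 177, 34 and 52 in that order. The 9 genes between Nodal and Cripto became 3 under median centring and 2 without the BeadChip term, on chips 1 to 4 and on chips 5 to 7. Calls over all genes fell from 2495 to 1168, 1234, 861 and 1154 in that order. The 18 interactions with Nodal became 11 without the BeadChip term and 11 on chips 1 to 4, where 4365 over all genes became 3175 and 3076. The counts against Media, 24 for Nodal and 26 for Cripto, became 16 and 18 with brightness as a covariate and 18 and 18 on chips 5 to 7. Over all genes, 5727 and 6421 became 3849 and 4576 with brightness and 4617 and 5404 on chips 5 to 7. With each array left out in turn, the counts ranged from 23 to 27 for Nodal and 24 to 26 for Cripto against Media. They ranged from 0 to 7 for Nodal with SB431542 against SB431542, 23 to 28 for Cripto with SB431542 against SB431542, 18 to 23 for Nodal with SB431542 against Nodal, 0 to 4 for Cripto with SB431542 against Cripto, 4 to 10 for Nodal against Cripto, 22 to 27 between the combined treatments, and 14 to 19 for the Nodal interaction. They stayed at 0 for SB431542 against Media and for the Cripto interaction. With an array left out, the matching counts over all genes are not given. No paired analysis was possible because the labels give no replicate numbers to pair arrays by, but arrays sharing a BeadChip were compared through the BeadChip term and within chips. Rab20, Rab25 and Rab39b were not above background on most arrays, which limits what their sizes show.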
